A study of Mus musculus with 48 samples.

Results

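The genes described here bring fatty acids from circulating triglyceride into the fat cell: Lpl, Gpihbp1, Lmf1, Angptl4 and Angptl8, which encode lipoprotein lipase and proteins that mature, carry or inhibit it, and Cd36, Slc27a1, Fabp4, Fabp5 and Acsl1, which encode proteins of fatty acid uptake, binding and activation. The 10 genes were taken by symbol from a table of 54532 genes, each symbol matched 1 row, and all 10 were among the 19977 genes with enough counts to be tested. They were followed through the day in inguinal subcutaneous white fat (sWAT, called iWAT in the labels) of male C57BL/6 mice that were 8 months old. One diet group ate freely (ad-lib) and the other was on twice-a-night (TAN) feeding for 6 months, with food given between 9 and 11 p.m. and again between 5 and 7 a.m., both within a dark phase that began at 8 p.m. and ended at 8 a.m. Each diet was sampled every 4 h around the clock, starting at 8 a.m., with 4 libraries at each time and 48 in all. All groups share strain, sex and age, and no transgene or deletion was involved. The study gives regular chow for both groups and reports a modestly lower food intake in TAN mice. Diet here therefore means the feeding schedule, and its timing and the lower intake cannot be told apart.

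In fat, lipoprotein lipase is made by adipocytes, folded in the endoplasmic reticulum with the help of lipase maturation factor 1, and carried across capillary cells by GPIHBP1, so that it can split the triglyceride of lipoproteins at the vessel wall. ANGPTL4 inactivates the enzyme and is known to be induced by fasting, and ANGPTL8 is known to be induced by feeding and insulin and to take part in the control of lipase activity. The released fatty acids cross the adipocyte membrane with the help of CD36 and the transporter FATP1, encoded by Slc27a1, are bound in the cytosol by FABP4 and FABP5, and are activated to acyl-CoA by ACSL1.

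The libraries held 15636378 to 29913310 gene counts. Summed over 10 adipocyte markers, adipocyte RNA was present in every library, from 6421 to 48275 CPM (counts in 1000000 gene counts, after scaling for library composition). The series text names the stromal vascular fraction of the depot, while the adipocyte markers, among them Adipoq and Plin1, were plentiful in all libraries. Other cells differed between libraries. The 10 lymphocyte markers summed to between 106 and 3738 CPM, and the 10 skeletal muscle markers exceeded 1000 CPM in 3 libraries, ad-lib replicate 3 at 12 p.m. and at 4 a.m. and TAN replicate 1 at 12 p.m. In whole tissue, fewer cells of a type and less RNA per cell cannot be told apart. The labels do not say that libraries of a group came from separate animals, so p-values measure the spread between these libraries.

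The time labels carry an uncertainty that bears on every statement about the hour. Compared over 979 genes, each of the 48 libraries was closest to values that the supplementary data of the study list 12 h apart. Those values stood under the same diet and replicate number. None of the libraries was closest to the values under the same time. The deposited table of group means carried the same time labels as the counts in 12 of 12 groups. By the deposited labels, which are used throughout, Dbp, Nr1d1, Tef, Per3 and Ciart were highest at 4 p.m. and Arntl and Npas2 at 8 a.m. in both diets. Counted from the end of the last meal, TAN libraries labelled 8 a.m. and 12 a.m. lie at 1 h, 12 p.m. and 4 a.m. at 5 h, 4 p.m. at 9 h and 8 p.m. at 13 h. Were the labels 12 h off, the 8 p.m. libraries would lie at 1 h and the 4 p.m. libraries at 5 h. Comparisons between diets at one labelled time are the same under either reading.

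Levels were first compared between genes per length, as FPKM (counts per kilobase of merged exon, scaled for depth as CPM are), given as the mean over the 12 groups with the SD over the 48 libraries. Fabp4, the major cytosolic fatty acid carrier of fat cells, was highest at 2449 ± 1282 FPKM (n = 48), followed by Cd36 at 1334 ± 668 FPKM (n = 48) and Lpl at 411 ± 235 FPKM (n = 48). Acsl1 came next at 142 ± 58.7 FPKM (n = 48). Angptl8, Angptl4, Fabp5, Slc27a1 and Gpihbp1 lay between 63.3 and 45.6 FPKM, and neighbours in this order differed by less than their SDs. Lmf1 was lowest at 1.39 ± 0.378 FPKM (n = 48). Angptl8 had the widest range, from 2.71 to 344 FPKM, a span of 127-fold between libraries, against 3.13-fold for Lmf1. The lengths are those deposited. For 8 of the 10 genes they equal the merged exons of all transcripts in GENCODE M21. They are shorter for Lmf1 (13471 against 13589 bases) and Angptl4 (3286 against 3541 bases). The FPKM of a gene with a rarely used long exon is therefore too low. The merged exons of Fabp4 form 1 block of 4489 bases, its whole annotated span. Those of Fabp5 and of Gpihbp1 form 2 blocks, of 3567 and 2554 bases in all. Angptl8 has 1 transcript, with 865 bases. How far such lengths set the order of the genes was not tested.

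**Figure D1:**
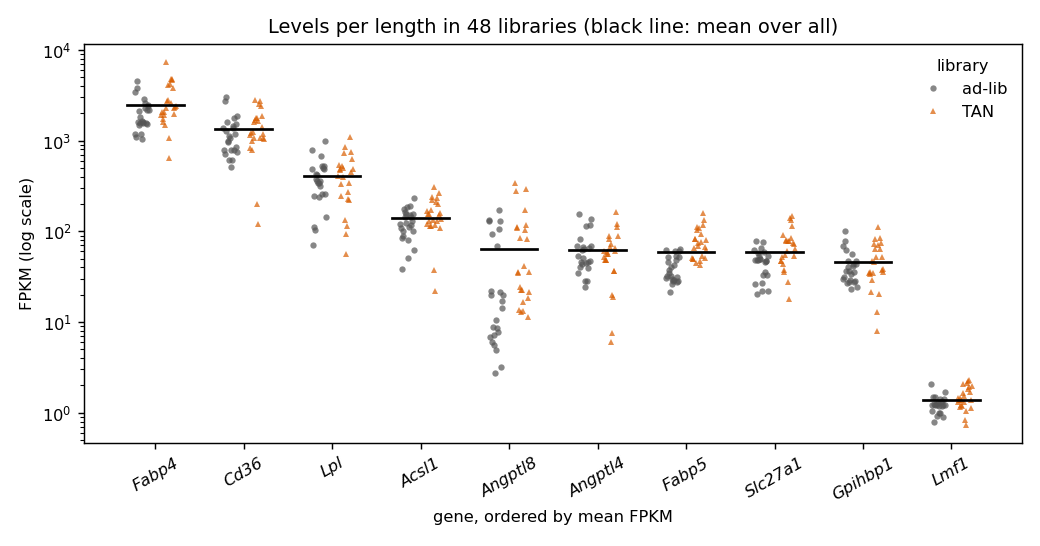
Level per length of the 10 genes in each library on a log axis (FPKM), with ad-lib libraries as circles, TAN libraries as triangles and the mean over all 48 as a black line. Fabp4 and Cd36 lie highest, Lmf1 lowest at 1.39 FPKM, and Angptl8 spreads most, from 2.71 to 344 FPKM.

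TAN feeding was then compared with ad-lib at each time. At 8 p.m. the lipase inhibitor gene Angptl4 fell in TAN, and Lpl itself was lower in all 4 TAN libraries but missed the threshold. At 4 p.m. the binding protein genes Fabp4 and Fabp5 rose, and at 12 a.m. Fabp5 rose again. Averaged over the day, Fabp5 and the transporter gene Slc27a1 rose. A gene is said to rise or fall where edgeR's quasi-likelihood test over all 19977 genes gave an adjusted p (Benjamini-Hochberg) under 0.05. By that rule 2 of the 10 genes rose at 4 p.m., where 6.54% of all genes rose and 8.77% fell. At 8 p.m. 1 of 10 fell, where 7.91% of all genes fell, a share close to that of the 10 genes, and 3.76% rose. At 12 a.m. 1 of 10 rose, where 0.125% of all genes rose and 0.0250% fell. At the remaining 3 times 0 of the 10 passed in edgeR, and 0 passed in DESeq2 and in limma voom. At an unadjusted p under 0.05, edgeR found 0 at 8 a.m. (6.58% of all genes), 1 at 12 p.m. (Fabp5, 7.37% of all genes) and 0 at 4 a.m. (2.64% of all genes). Among all genes, 0.0100% rose and 0.00501% fell at 8 a.m., 0.0851% rose and 0.00501% fell at 12 p.m., and 0 genes passed at 4 a.m.

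**Figure D2:**
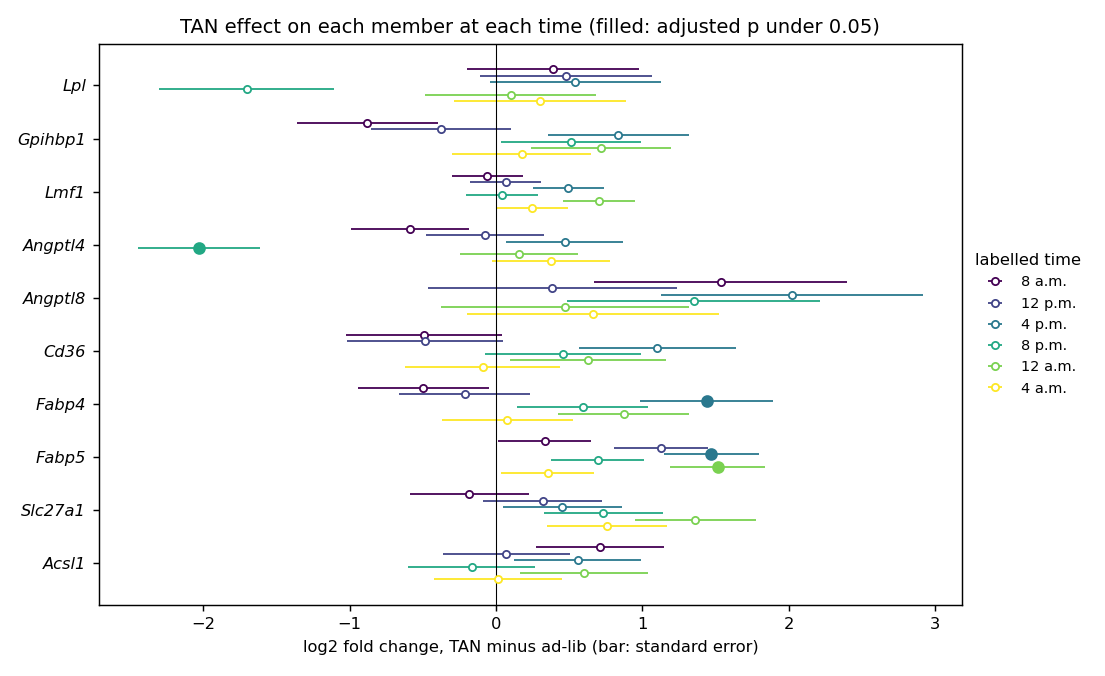
Log2 fold change of each gene, TAN minus ad-lib, at the 6 labelled times, with the standard error as a bar (4 libraries against 4). Filled symbols passed the adjusted threshold, which were Angptl4 at 8 p.m. (-2.03), Fabp4 at 4 p.m. (1.44) and Fabp5 at 4 p.m. (1.47) and 12 a.m. (1.52).

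Lpl encodes the lipase. At 8 p.m. it measured 2475, 3301, 3792 and 7087 CPM in the ad-lib libraries and 969, 596, 1188 and 2362 CPM in the TAN libraries. Every TAN library lay below every ad-lib library, though the highest TAN library was close to the lowest ad-lib one. The log2 fold change was -1.70 ± 0.60 (SE), with an unadjusted p of 0.0070 and an adjusted p of 0.0552 in edgeR over all genes. Of 20 alternative analyses 6 put it past the threshold, with adjusted p of 0.0239 in DESeq2, 0.0311 in limma voom and 0.0235 without TAN replicate 4, and 14 did not. At the other 5 times the groups overlapped, with log2 fold changes between 0.10 and 0.54. The 8 a.m. ad-lib libraries alone spanned 742 to 8357 CPM, while the TAN libraries of that time lay within 4312 to 5675 CPM.

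The adipocyte markers of the 8 p.m. libraries varied too. The 10 markers summed to 9056, 6421, 28525 and 48275 CPM in the 4 TAN libraries and to 9274 to 27018 CPM in ad-lib, so the TAN libraries were both the lowest and the highest, and within TAN the replicates had the same order in Lpl as in the markers. Per 1000 CPM of adipocyte marker, Lpl was 267, 226, 305 and 262 in ad-lib and 107, 92.8, 41.6 and 48.9 in TAN at 8 p.m. With the mean log2 CPM of the adipocyte markers as a covariate, an analysis added after the marker sums were seen, the log2 fold change of Lpl was -1.67 with an adjusted p of 0.0237 in edgeR. The 10 endothelial markers were lower as well in TAN at 8 p.m., at 295, 246, 562 and 545 CPM against 542 to 860 CPM, and 3 of the 10 fell. Over the 48 libraries the log2 CPM of Lpl had a Pearson r of 0.64 with their mean log2 CPM. With that of the adipocyte markers r was 0.44. The part of the endothelial markers in the result was not tested.

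Gpihbp1 encodes the capillary carrier of the lipase. At 4 p.m. it measured 105, 121, 71.2 and 93.1 CPM in ad-lib and 187, 164, 212 and 132 CPM in TAN. The groups did not overlap, yet the log2 fold change of 0.84 ± 0.48 (SE) had an adjusted p of 0.221 in edgeR. With the adipocyte covariate its direction turned, to -0.15 (adjusted p 0.817). At 8 p.m. the TAN libraries split into 32.9 and 20.5 CPM in replicates 1 and 2 and 180 and 285 CPM in replicates 3 and 4, the same replicates that were low and high in adipocyte markers. Over the 48 libraries the log2 CPM of Gpihbp1 had a Pearson r of 0.87 with the mean log2 CPM of the adipocyte markers and of 0.60 with that of the endothelial markers, a description in which all points share the scaling of their library.

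Lmf1, the maturation factor of the lipase, was measured with 223 to 590 counts a library. At 12 a.m. it stood at 17.9, 15.8, 18.1 and 16.6 CPM in ad-lib and at 24.7, 29.8, 25.8 and 31.1 CPM in TAN. The groups did not overlap, and the log2 fold change was 0.70 ± 0.24 (SE) with an unadjusted p of 0.0062 and an adjusted p of 0.155 in edgeR.

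**Figure D3:**
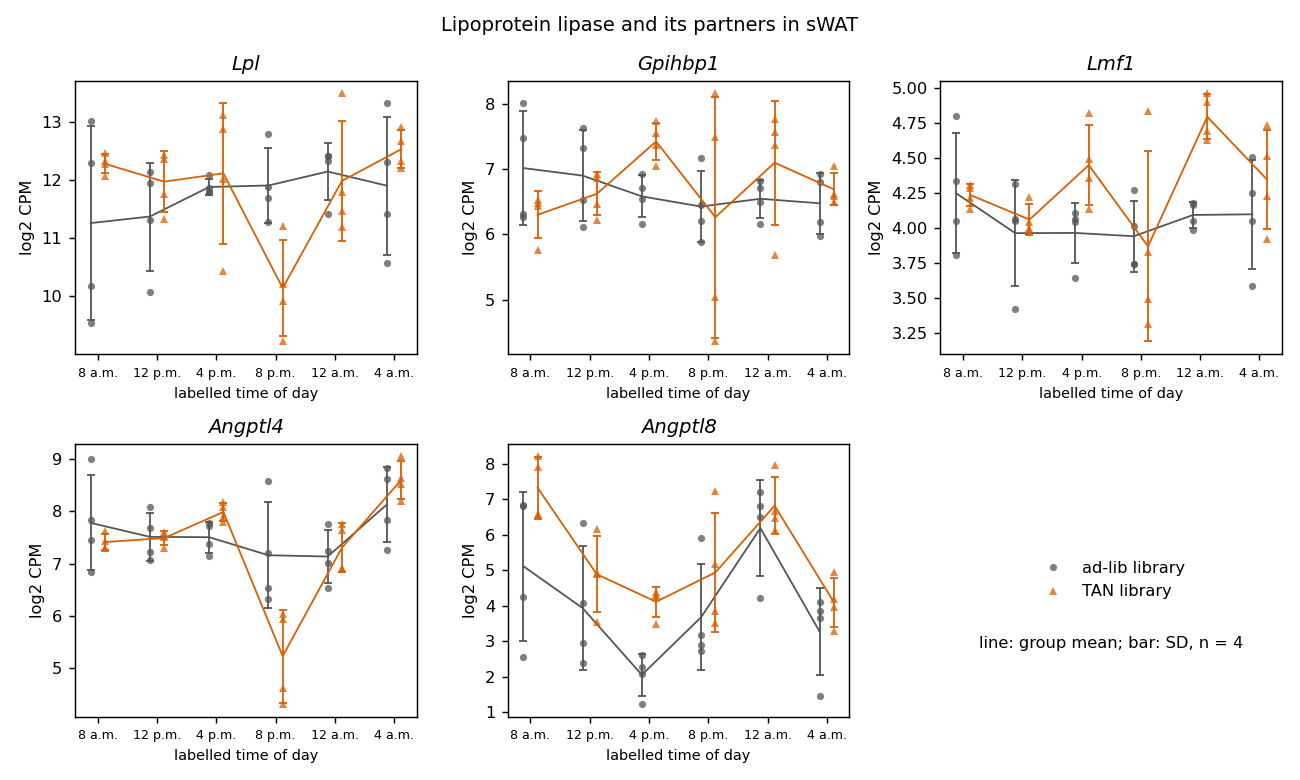
Log2 CPM of Lpl, Gpihbp1, Lmf1, Angptl4 and Angptl8 over the labelled day, with a point per library, the group mean as a line and the SD as a bar (n = 4). Angptl4 and Lpl dip at 8 p.m. in TAN, and Angptl8 is high at 8 a.m. and 12 a.m. in TAN.

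Angptl4, which encodes the inhibitor of lipoprotein lipase in fat, carried the largest fall among the 10 genes. At 8 p.m. it measured 92.3, 80.7, 148 and 381 CPM in ad-lib and 19.9, 24.7, 65.9 and 61.7 CPM in TAN. All TAN libraries were below all ad-lib libraries, and ad-lib replicate 4 was far above the other 3. The log2 fold change was -2.03 ± 0.42 (SE) with an adjusted p of 0.00341 in edgeR. Without ad-lib replicate 4 it was -1.32 with an adjusted p of 0.0167. It passed in 19 of 20 alternatives and was lost in a fit of the 8 p.m. libraries alone, with an adjusted p of 0.135. Per 1000 CPM of adipocyte marker, Angptl4 was 9.95, 5.53, 11.9 and 14.1 in ad-lib and 2.20, 3.85, 2.31 and 1.28 in TAN, again without overlap. Over the 48 libraries its log2 CPM had a Pearson r of 0.71 with the endothelial markers, the highest among the 10 genes. With the adipocyte markers r was 0.54. The endothelial markers were lower in TAN at 8 p.m. as well, and their part in the fall of Angptl4 was not tested. At 8 p.m. 2 of the 10 genes, Lpl and Angptl4, were lower in every TAN than in every ad-lib library, where 11.6% of all genes were.

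The TAN effect on Angptl4 differed between times. At 4 a.m. the gene was at 153, 391, 453 and 229 CPM in ad-lib and at 533, 398, 367 and 292 CPM in TAN, with overlapping groups and a log2 fold change of 0.37 ± 0.40 (SE). At 4 p.m. the log2 fold change was 0.47 ± 0.40 (SE), with 142 to 220 CPM in ad-lib and 221 to 291 CPM in TAN. In the edgeR test of whether the fold change differs between the 6 times, Angptl4 had an adjusted p of 0.0254, the only one of the 10 genes past the threshold, where 8.98% of all genes were. That call was lost without 5 of the 8 replicate numbers in turn, ad-lib 3 and 4 and TAN 1, 2 and 3, with adjusted p from 0.0896 to 0.117.

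Angptl8 encodes a small secreted protein of fat and liver. At 8 a.m. it measured 113, 115, 5.92 and 18.8 CPM in ad-lib and 297, 243, 96.8 and 94.9 CPM in TAN. At 4 p.m. it measured 6.18, 4.87, 2.35 and 4.22 CPM in ad-lib and 20.9, 19.5, 11.2 and 19.7 CPM in TAN. The ad-lib libraries of 8 a.m. split into 2 high and 2 low, and at 4 p.m. the groups did not overlap. The log2 fold changes were 1.53 ± 0.87 (SE) at 8 a.m. and 2.02 ± 0.90 (SE) at 4 p.m., with adjusted p of 0.796 and 0.110 in edgeR. Averaged over the 6 times the log2 fold change was 1.07 ± 0.35 (SE) with an adjusted p of 0.063, positive at each time. Angptl8 lies within the gene Dock6, on the opposite strand and sharing no exon with it. Whether the counting used strand is not given in the sources used here.

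The balance of the 2 inhibitor genes was compared as the log2 ratio of Angptl8 to Angptl4 within each library. Averaged over the day, the ratio was 1.51 higher in TAN on the log2 scale, and higher at 6 of 6 times, with p = 0.00082 in a 2-sided permutation test of the diet labels within times (100000 resamples) and 0.00164 adjusted over 4 ratios. At 8 p.m. its mean was -3.47 ± 2.27 (SD, n = 4) in ad-lib and -0.29 ± 1.04 (SD, n = 4) in TAN. The groups overlapped there, with an exact permutation p of 0.114 and 0.392 adjusted over 24 tests. At 12 a.m. and 4 a.m. the differences were 0.46 and 0.35 (exact permutation p 0.743 and 0.600). At 4 p.m. it was -5.42 ± 0.667 (SD, n = 4) in ad-lib and -3.87 ± 0.309 (SD, n = 4) in TAN, without overlap. There the exact permutation test gave p = 0.0286, the smallest that 4 against 4 allows, and 0.229 adjusted over 24 tests. The ratios of Angptl4 to Lpl and of Gpihbp1 to Lpl averaged -0.29 and -0.02 in TAN relative to ad-lib on the log2 scale, with adjusted permutation p of 0.380 and 0.956 (4 ratios). The mean near 0 of Gpihbp1 to Lpl joins times of opposite sign. At 8 p.m. the ratio was -5.49 ± 0.423 (SD, n = 4) in ad-lib and -3.88 ± 1.15 (SD, n = 4) in TAN, without overlap, with an exact permutation p of 0.0286 and 0.229 adjusted over 24 tests. At 8 a.m. it was -4.25 ± 1.86 (SD, n = 4) in ad-lib and -5.99 ± 0.425 (SD, n = 4) in TAN, with overlap (exact permutation p 0.143). At 8 p.m. Angptl4 and Lpl were low together, and their log2 ratio was -4.75 ± 0.466 (SD, n = 4) in ad-lib and -4.90 ± 0.644 (SD, n = 4) in TAN.

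The promoter window of Angptl8 is shown because the gene had the widest range of the 10. It runs from 250 bases before to 50 bases after the annotated start in RefSeq (GRCm38.p6), at chr9:21835260-21835559 on the plus strand, with the bases from the start site on in capitals.

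Angptl8: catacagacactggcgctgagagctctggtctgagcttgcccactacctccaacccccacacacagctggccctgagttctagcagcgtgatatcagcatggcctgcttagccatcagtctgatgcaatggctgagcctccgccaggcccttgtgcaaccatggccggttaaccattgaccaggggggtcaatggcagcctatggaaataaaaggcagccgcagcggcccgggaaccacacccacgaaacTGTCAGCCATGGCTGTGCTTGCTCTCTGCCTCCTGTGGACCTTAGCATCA

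Cd36 encodes the fatty acid translocase, which takes up fatty acids in adipocytes and capillary cells alike. At 4 p.m. it measured 3501, 4076, 2170 and 3826 CPM in ad-lib and 10168, 6049, 6453 and 6463 CPM in TAN. The groups did not overlap, and TAN replicate 1 was far above the other TAN libraries. The log2 fold change was 1.10 ± 0.54 (SE) with an adjusted p of 0.144 in edgeR, and 0.01 with the adipocyte covariate (adjusted p 0.992). Over the 48 libraries its log2 CPM had the highest r with the adipocyte markers among the 10 genes, 0.90, and r was -0.65 with the lymphocyte markers.

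Fabp4 rose at 4 p.m. It measured 7112, 8216, 5355 and 7445 CPM in ad-lib and 32970, 12354, 18311 and 12698 CPM in TAN. All TAN libraries were above all ad-lib libraries, with TAN replicate 1 highest by far. The log2 fold change was 1.44 ± 0.45 (SE) with an adjusted p of 0.0310 in edgeR. Without TAN replicate 1 it was 1.04 (adjusted p 0.148), and leaving out each replicate number in turn lost the call in 6 of 8 cases, with adjusted p from 0.0514 to 0.148. It held without TAN 2 and without TAN 4. With the lymphocyte markers as a covariate the log2 fold change was 0.67 (adjusted p 0.538), and with the adipocyte markers 0.61 (adjusted p 0.223). Per 1000 CPM of adipocyte marker, Fabp4 was 463, 433, 401 and 466 in ad-lib and 925, 416, 464 and 446 in TAN, so that TAN replicate 1 stood alone above the rest.

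Fabp5, known as the epidermal fatty acid binding protein and also made in fat cells and macrophages, was higher on average in TAN at each of the 6 times. At 4 p.m. it measured 143, 116, 107 and 94.8 CPM in ad-lib and 370, 246, 267 and 393 CPM in TAN. At 12 a.m. it measured 193, 171, 113 and 99.6 CPM in ad-lib and 191, 564, 423 and 470 CPM in TAN. At 4 p.m. the groups did not overlap, and at 12 a.m. TAN replicate 1 lay among the ad-lib libraries while the other 3 lay above them. The log2 fold changes were 1.47 ± 0.32 (SE) at 4 p.m., with an adjusted p of 0.00818, and 1.52 ± 0.32 (SE) at 12 a.m., with an adjusted p of 0.0299 in edgeR. The first was kept in 8 of 8 fits that left out a replicate number. The second was kept in 2 of 8, without ad-lib 1 and without TAN 1, and was lost in the others with adjusted p from 0.0861 to 0.232. With the lymphocyte covariate the values were 0.85 (adjusted p 0.305) and 1.02 (adjusted p 0.199). The 4 p.m. call was also lost with the adipocyte covariate (1.08, adjusted p 0.0549), and the 12 a.m. call in a fit of the 12 a.m. libraries alone (1.48, adjusted p 0.131).

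At 12 p.m. Fabp5 measured 188, 125, 134 and 76.8 CPM in ad-lib and 295, 294, 158 and 398 CPM in TAN. Only TAN replicate 3 overlapped with the ad-lib libraries. The log2 fold change was 1.13 ± 0.32 (SE) with an unadjusted p of 0.0011 and an adjusted p of 0.309 in edgeR, and it passed with either the lymphocyte or the adipocyte covariate (adjusted p 0.00288 and 0.0304). Over the 6 times the mean log2 fold change was 0.92 ± 0.13 (SE) with an adjusted p of 1.3e-05, positive at each time. It stayed past the threshold in every alternative but one, the mean without 4 p.m. and 12 a.m. (0.63, adjusted p 0.108). Averaged over the day, 2 of the 10 genes rose, Fabp5 and Slc27a1, where 2.68% of all genes rose and 2.74% fell. The table lists 2 processed pseudogenes of Fabp5, with 18 and 12 counts over all libraries, and reads that they share with the gene could have been assigned to either.

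Relative to Fabp4, Fabp5 was higher in TAN. The log2 ratio of Fabp5 to Fabp4 was 0.56 higher on average over the day and higher at 6 of 6 times, with p = 0.00019 in the 2-sided permutation test and 0.00076 adjusted over 4 ratios. At 12 p.m. it was -6.23 ± 0.301 (SD, n = 4) in ad-lib and -4.98 ± 0.301 (SD, n = 4) in TAN without overlap, with an exact permutation p of 0.0286 and 0.229 adjusted over 24 tests. At 4 p.m., where both genes rose, the ratio was -5.93 ± 0.341 (SD, n = 4) in ad-lib and -5.81 ± 0.629 (SD, n = 4) in TAN.

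Slc27a1 encodes FATP1, an insulin-responsive fatty acid transporter. At 12 a.m. it measured 345, 210, 265 and 272 CPM in ad-lib and 495, 772, 677 and 858 CPM in TAN. No library overlapped, and the log2 fold change was 1.36 ± 0.41 (SE) with an unadjusted p of 0.0020 and an adjusted p of 0.130 in edgeR, and 0.0302 in DESeq2. At 4 a.m. it measured 278, 192, 308 and 127 CPM in ad-lib and 429, 310, 419 and 373 CPM in TAN, again without overlap, and the log2 fold change was 0.76 ± 0.41 (SE). Averaged over the day the log2 fold change was 0.57 ± 0.17 (SE) with an adjusted p of 0.0363 in edgeR. That call was lost without ad-lib 1, 2 or 3 or TAN 3 or 4, with adjusted p from 0.0673 to 0.192, in the mean without 4 p.m. and 12 a.m. (0.41, adjusted p 0.486), with no filter on low counts (0.56, adjusted p 0.0551) and with the lymphocyte covariate (0.44, adjusted p 0.0557).

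Of 8 promoter windows that RefSeq gives for 5 of the genes (Lmf1, Angptl8, Cd36, Slc27a1 and Acsl1), 1 held the E-box CACGTG, the core element bound by clock and other basic helix-loop-helix factors, which 7.15% of all 32851 windows hold. It belongs to the third start of Slc27a1 and is shown for that reason, at chr8:71570365-71570424 (GRCm38.p6, plus strand) with the E-box in capitals. The E-box reads the same on both strands. Neither the direct repeat AGGTCANAGGTCA bound by PPAR and RXR (0.0396% of all windows) nor the full palindrome of the glucocorticoid response element (0.00913%) was found on either strand of the 8 windows.

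Slc27a1: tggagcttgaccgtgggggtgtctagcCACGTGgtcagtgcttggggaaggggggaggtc

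Acsl1, the main acyl-CoA synthetase of fat cells, did not pass at any time. At 8 a.m. it measured 1276, 1140, 402 and 878 CPM in ad-lib and 1278, 1760, 1648 and 1360 CPM in TAN. The groups did not overlap by a narrow margin, and the log2 fold change was 0.71 ± 0.44 (SE) with an adjusted p of 0.826 in edgeR. At 8 p.m. its TAN libraries split as those of Gpihbp1 did, at 389, 229, 1220 and 2209 CPM. A gene of unproven coding status, Gm45244, overlaps 9.91% of its exon bases on the opposite strand, with 782 counts in all against 1453469 for Acsl1.

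**Figure D4:**
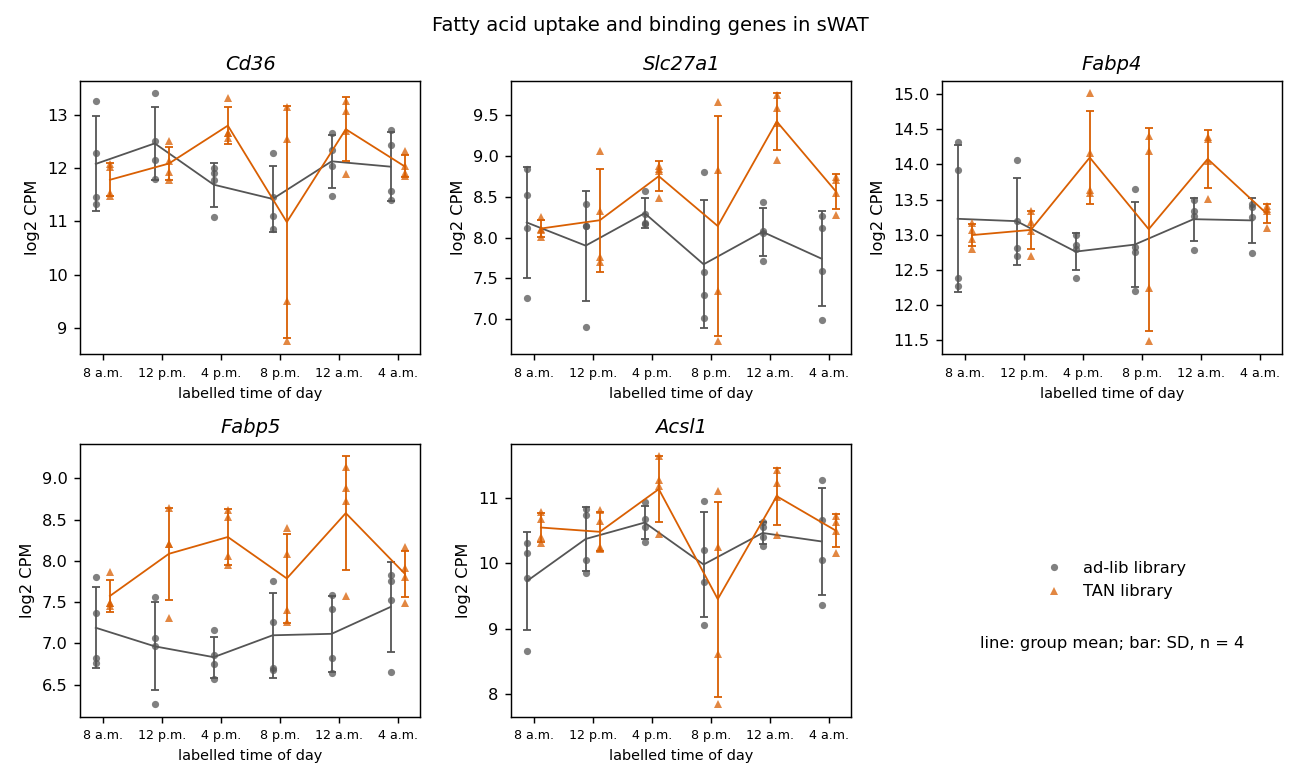
Log2 CPM of Cd36, Slc27a1, Fabp4, Fabp5 and Acsl1 over the labelled day, with a point per library, the group mean as a line and the SD as a bar (n = 4). Fabp5 lies higher in TAN at all 6 times, and the TAN libraries of 8 p.m. spread widely for Cd36 (428 to 9099 CPM), Fabp4 and Acsl1.

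Across the 10 genes, the log2 fold changes had a median of 0.70 at 4 p.m., of 0.48 at 8 p.m. and of 0.67 at 12 a.m., beside -0.09, -0.10 and -0.14 over all genes tested. All 10 values were positive at 4 p.m. and at 12 a.m., and at 8 p.m. 7 were positive and 3 negative, those of Lpl, Angptl4 and Acsl1. The median of the 10 was -0.12 at 8 a.m. (all genes 0.01), 0.07 at 12 p.m. (all genes 0.04) and 0.27 at 4 a.m. (all genes 0.00). Of the 10 genes, 7 were higher in every TAN than in every ad-lib library at 4 p.m., where 12.8% of all genes were, 3 at 12 a.m. (3.59% of all), 1 at 8 a.m. (2.03%) and 1 at 4 a.m. (1.91%).

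Marker genes of other cells moved at the same times. At 4 p.m. the lymphocyte markers summed to 249, 170, 605 and 233 CPM in TAN and 1861 to 3738 CPM in ad-lib, without overlap, and 5 of the 10 fell. The adipocyte markers summed to 28444 to 39433 CPM in TAN and 13362 to 18969 CPM in ad-lib, also without overlap, and 1 of the 10 rose. Over 4 p.m., 8 p.m. and 12 a.m. in turn, the adipocyte markers had median log2 fold changes of 0.90, 0.43 and 0.54, beside the medians of 0.70, 0.48 and 0.67 of the 10 genes. At 12 a.m. the lymphocyte sum was 2019, 134, 591 and 106 CPM in TAN replicates 1 to 4, beside 1842 to 2160 CPM in ad-lib, and the adipocyte sum was 22265 to 47040 CPM in TAN and 19822 to 24888 CPM in ad-lib. The 1 TAN library at the ad-lib level of these markers, replicate 1, was also the one at the ad-lib level of Fabp5. Diet and lymphocyte RNA cannot be told apart at 4 p.m., since their libraries separate in the same way. Averaged over the day, Fabp5 kept a log2 fold change of 0.81 with the lymphocyte covariate (adjusted p 5e-06) and 0.85 with the adipocyte covariate (adjusted p 1.1e-06).

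**Figure D5:**
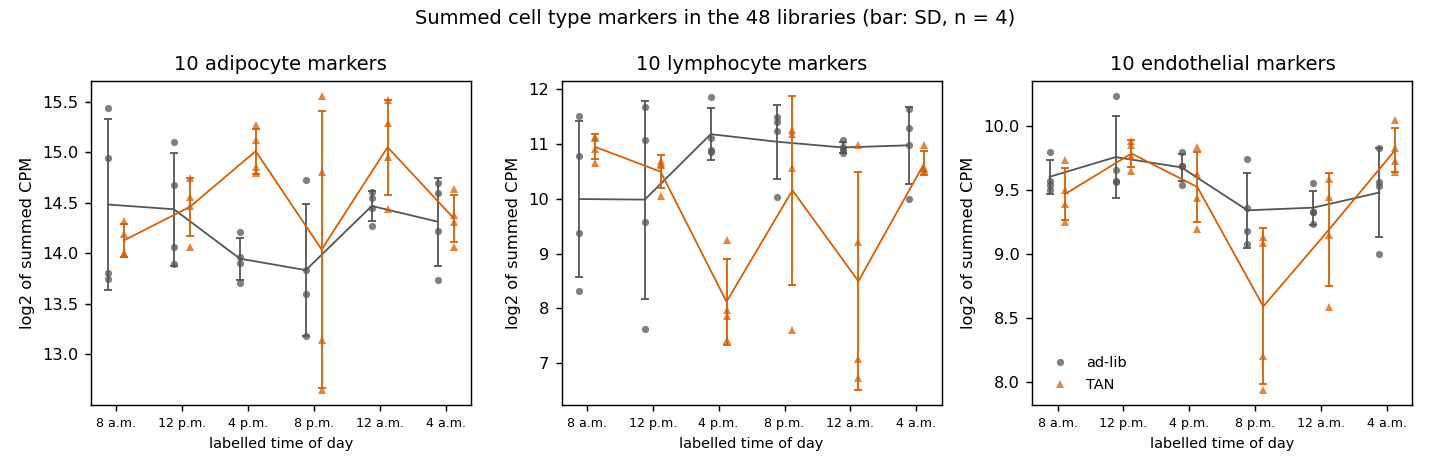
Log2 of the summed CPM of 10 adipocyte, 10 lymphocyte and 10 endothelial markers over the labelled day, with a point per library, the group mean as a line and the SD as a bar (n = 4). At 4 p.m. the TAN libraries lie at 170 to 605 CPM of lymphocyte marker and the ad-lib libraries at 1861 to 3738 CPM.

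The time course within each diet was tested next. In TAN, Angptl4 and Angptl8 varied over the day, with adjusted p of 0.000198 and 0.0122 in edgeR, 2 of the 10 genes where 23.0% of all genes varied. Angptl4 had its highest TAN mean at 4 a.m. (397 ± 101 CPM, SD, n = 4) and its lowest at 8 p.m. (43.0 ± 24.1 CPM, SD, n = 4). By the labels the highest lay 5 h and the lowest 13 h after the last meal, the longest fast sampled. Were the labels 12 h off, they would lie at 9 h and 1 h. How Angptl4 relates to fasting in these mice was not tested. Angptl8 had its highest TAN mean at 8 a.m. (183 ± 103 CPM, SD, n = 4) and second highest at 12 a.m. (128 ± 83.0 CPM, SD, n = 4). These times are labelled 1 h after a meal, but would lie at 13 h and 5 h were the labels 12 h off. In ad-lib, which had no meal windows, Angptl8 was also highest at these times, with 92.7 ± 54.8 CPM at 12 a.m. and 63.2 ± 58.9 CPM at 8 a.m. (SD, n = 4). The Angptl8 call in TAN was lost without TAN replicate 1, 2 or 3 (adjusted p 0.0919, 0.168 and 0.0836). In ad-lib 0 of the 10 varied in edgeR, where 0.0551% of all genes varied, and 0 in limma voom. In edgeR 1 had an unadjusted p under 0.05 (6.67% of all genes), Angptl8. Its unadjusted p was 0.000325 in ad-lib (adjusted 0.141) and 0.00085 in TAN. Its group means spanned 4.10 on the log2 scale in ad-lib, from 4 p.m. to 12 a.m., and 3.22 in TAN. The TAN effect on Angptl8 was not shown to differ between times (adjusted p 0.811 in edgeR). A 24-h cosine was fitted for Angptl4 in TAN with an adjusted p of 0.00352 and an amplitude of 0.87 on the log2 scale, 1 of the 10 where 19.8% of all genes passed. In ad-lib and in the difference between diets 0 of 10 passed in edgeR, the tool used for this test, where 0.0801% and 20.2% of all genes did, with 1 and 2 of the 10 at an unadjusted p under 0.05 (11.4% and 33.6% of all genes).

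Other genes of the pathway were taken from a pair of lists. Of 20 further genes of lipase control and lipoprotein binding, 19 were tested and Apoc2 had too few counts. At 4 p.m. 2 of them rose (6.54% of all genes did), Apoc1 (46.7 ± 10.7 CPM in ad-lib and 122 ± 44.4 CPM in TAN, SD, n = 4, log2 fold change 1.39, adjusted p 0.0263) and Apoc3 (0.765 ± 0.276 and 5.97 ± 3.19 CPM, SD, n = 4, log2 fold change 2.96, adjusted p 0.0188), both apolipoproteins that restrain the clearance of triglyceride-rich particles. At 8 p.m. 2 of them fell (7.91% of all genes did), and 4 fell in limma voom. Sel1l, needed for lipase to leave the endoplasmic reticulum, was 134 ± 4.55 CPM in ad-lib and 84.0 ± 10.1 CPM in TAN (SD, n = 4, log2 fold change -0.67, adjusted p 0.0131). Lipg, the endothelial lipase, was 7.98 ± 4.52 and 1.68 ± 0.847 CPM (SD, n = 4, log2 fold change -2.25, adjusted p 0.0369). Averaged over the day 2 of them rose (2.68% of all genes did), Apoc3 (1.28, adjusted p 0.0144) and Furin, a protease that cleaves ANGPTL proteins and the lipase (0.49, adjusted p 0.0465).

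Of 23 further genes of fatty acid uptake, all tested, 2 rose and 1 fell at 4 p.m., where 6.54% of all genes rose and 8.77% fell. Dbi, the acyl-CoA binding protein, was 785 ± 194 CPM in ad-lib and 2514 ± 1076 CPM in TAN (SD, n = 4, log2 fold change 1.68, adjusted p 0.0146). Vegfb, a growth factor linked to fatty acid transport across endothelium, was 73.4 ± 20.8 and 169 ± 25.7 CPM (SD, n = 4, adjusted p 0.0365). Acsbg1, an acyl-CoA synthetase, fell from 8.65 ± 4.11 to 2.35 ± 1.33 CPM (SD, n = 4, log2 fold change -1.88, adjusted p 0.0476). At 8 p.m. 1 of them rose, Zdhhc4, which palmitoylates CD36 (40.9 ± 1.17 and 62.1 ± 22.0 CPM, SD, n = 4, log2 fold change 0.60, adjusted p 0.0403), where 3.76% of all genes rose. There DESeq2 gave 1 rise and 1 fall in this list, and limma voom 0 rises and 4 falls. The TAN effect on Dbi and Zdhhc4 differed between times (adjusted p 0.0345 and 0.0255).

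The genes most alike in pattern were found by Pearson's r of the log2 group means over the 12 groups, among 15502 genes. For Lpl these were Vwa8 (0.97), Fer1l5 (0.96) and Ralgapa2 (0.96), for Gpihbp1 Abhd4 (0.95), Colca2 (0.95) and March8 (0.95), and for Angptl4 Rnf125 (0.95), Hoxb8 (0.94) and Rarb (0.92). For Angptl8 they were Mid1ip1 (0.95), Ppp1r3b (0.92) and Nabp1 (0.90), and for Cd36 Maoa, Cyp2j6 and Maob (0.98 each). Among the 10 genes themselves, over 48 libraries, r was highest for Gpihbp1 and Cd36 (0.91) and lowest for Angptl4 and Angptl8 (-0.17).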

How the data were processed

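RNA of inguinal fat was sequenced by the submitters after poly-T selection. Their processing notes name TopHat 1.3.3, DESeq2 1.20.0, edgeR and limma, and the builds mm9, mm10 and GRCm38, without saying which step used which; whether the libraries or the counting were stranded is not given in the sources used here. The authors deposited raw read counts per gene with gene lengths in bases, and a table of FPKM averaged over each group by the authors, which was used only to check time labels. Of the genes in the count table, 98.1% had the start and end of GENCODE M21 (GRCm38).

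The test was that of edgeR 4.0.16 (R 4.3.3). Low genes were removed by filterByExpr (minimum count 10), TMM factors scaled the libraries, and a quasi-likelihood model with 12 groups (diet and time) was fitted to all 48 libraries. The comparisons were TAN against ad-lib at each time, its mean over the times, its difference between times, variation over the day within each diet, and a 24-h cosine. P-values were adjusted (Benjamini-Hochberg) over all genes tested, with a threshold of 0.05. SE is the log2 fold change divided by the square root of F. On simulated counts with 195 genes changed by 2 on the log2 scale among 19472 at 8 p.m., edgeR recovered 47.7% of them and made 7 false calls. Ratios were log2 ratios of counts with a prior count of 2, tested by permutation (scipy 1.17.1).

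Values of members are given per library. Named genes were the 10 members, genes of the other lists called at a time (at most 8 a list), and the 3 genes most alike in pattern to Lpl, Gpihbp1, Angptl4, Angptl8 and Cd36. The members and lists were chosen with earlier results of these data known, so no pattern here is independent support for those results. Alternatives were RLE scaling, other filters, DESeq2 1.42.0, limma 3.58.1 with voom, no mitochondrially encoded genes, a replicate block, separate fits per time, marker covariates and leaving out replicates; 3 were added after the data were seen (an adipocyte covariate, no muscle-rich libraries, and a mean without 4 p.m. and 12 a.m.). Groups came from the sample titles, and every column of the count table belonged to a sample (0 not used). No 2 libraries were identical (0 pairs).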

Additional observations from a re-analysis of the deposited data

Results flagged for a closer look

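Each gene was looked at in each of the 12 groups of 4 libraries for a library far from the other 3, by Dixon's ratio at the 95% level. Of 120 gene and group pairs 8 stood out, where chance alone gives about 6. In ad-lib, Lpl was lowest in replicate 2 at 12 a.m. (2730 CPM), Lmf1 in replicate 3 at 4 p.m. (12.5 CPM), and Angptl8 was highest in replicate 2 at 8 p.m. (59.8 CPM). In TAN at 8 a.m., replicate 4 was lowest for Gpihbp1 (54.2 CPM) and highest for Fabp5 (234 CPM). In TAN at 4 p.m., Angptl8 (11.2 CPM) and Slc27a1 (357 CPM) were lowest in replicate 3, and Cd36 was highest in replicate 1 (10200 CPM), the library that was also highest for Fabp4.

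The TAN effect on Angptl4 differed between the 6 times, with an adjusted p of 0.0254 in edgeR, the fold change being -2.03 at 8 p.m. and between -0.59 and 0.47 at the other times on the log2 scale.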

How the results depend on the processing

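Leaving out each replicate number in turn gave 1 to 2 rises and 1 to 2 falls over the 6 times (3 and 1 in the analysis reported), 1 to 2 genes with a mean TAN effect (2), 0 to 1 with an effect differing between times (1), 0 varying in ad-lib (0), 1 to 4 varying in TAN (2), 1 to 2 with a 24-h cosine in TAN (1) and 0 to 1 with one that differs between diets (0). Those fits have fewer libraries. The lymphocyte covariate gave 1 rise, that of Fabp5 at 12 p.m., which is not among the 3 reported. It also gave 2 falls, 1 mean effect, 2 effects differing between times, 1 gene varying in ad-lib, 3 cosines in TAN and 2 that differ between diets. The adipocyte covariate gave 3 rises, but those of Fabp4 and Fabp5 at 4 p.m. were lost and that of Fabp5 at 12 p.m. was gained. It also gave 2 falls, 2 effects differing between times, 5 cosines in TAN and 4 that differ. Separate fits per time gave 5 rises and 0 falls; 2 falls came with 10 counts required in every library, with DESeq2 and with limma voom, and an unadjusted p gave 10 rises and 2 falls. Mean effects were 1 with no filter and 0 without 4 p.m. and 12 a.m. Genes varying in TAN were 5 with limma voom and 5 with the muscle covariate. Cosines were 2 in TAN without muscle-rich libraries, and 1 differed between diets with 10 counts in every library. The cause of these differences was not tested.

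The log2 ratio of Gpihbp1 to Lpl turned from -0.02 to 0.07 without ad-lib replicate 2, 0.04 without ad-lib 4, 0.04 without TAN 1 and 0.10 without TAN 4. Over the 8 fits without a replicate it ranged from -0.18 to 0.10, Angptl4 to Lpl from -0.50 to -0.06, Angptl8 to Angptl4 from 1.11 to 1.82 and Fabp5 to Fabp4 from 0.46 to 0.66. RLE scaling moved the median of all genes by at most 0.04 (log2) and changed the calls over all genes from 25 higher and 5 lower to 56 and 7 at 12 a.m., from 752 and 1581 to 975 and 1465 at 8 p.m., and from 2 and 1 to 2 and 2 at 8 a.m.

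The labels do not say that equal replicate numbers pair libraries, and pairing was not excluded. Of 24 same-numbered pairs of an ad-lib and a TAN library of one time, 7 correlated above 0.1. The median r was 0.02, with a range from -0.35 to 0.50. Differently numbered pairs, and equal numbers at different times, were not compared. With the replicate block 3 rises, 1 fall and 2 mean effects were found, and the log2 fold change of Angptl4 at 8 p.m. was -1.97.

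With 4 libraries a group, the simulated 4-fold changes were missed about as often as they were found, so an uncalled gene is not shown to be alike in both diets. The simulation changed 195 of 19472 genes, at 8 p.m. only, where 7.91% of all genes fell and 3.76% rose in the data. Recovery at the other times, and with more genes changed, was not simulated. Angptl8 had 56 to 5293 counts a library and Lmf1 223 to 590.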
